A study of Mus musculus with 8 samples.

Results

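Potassium, sodium and calcium channel genes were followed in the heart and pharyngeal mesoderm of embryos with and without Isl1. The 128 genes were taken from the deposited expression table by symbol: all Kcn genes, the sodium channel pore and beta subunits (Scn), the auxiliary calcium channel subunits (Cacnb, Cacna2d and Cacng) and the calcium channel pores Cacna1a, Cacna1b, Cacna1e and Cacna1s. They made up 128 of the 20701 gene symbols of the table and comprised 94 potassium, 14 sodium and 20 calcium channel genes. RNA had been sequenced from the dissected pharyngeal mesoderm and heart of single C57BL/6 mouse embryos at E8.75, at the 6-somite stage, in 4 Isl1-/- (knockout) and 4 wild-type embryos. Isl1 is a LIM-homeodomain protein that cardiac progenitors need to build the outflow tract and right ventricle. The genotype is that of the whole embryo and not of a single tissue, and the dissected piece is a mixture of myocardium, pharyngeal mesoderm and the layers around them. Libraries held 23480456 to 26153048 counts in wild-type and 18916449 to 25047024 counts in knockout embryos. Knockout embryo 2 is the only library labelled as total RNA, and the other 7 are labelled polyA RNA.

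Voltage-gated potassium channels are built of pore subunits that open on depolarization and let potassium leave the cell, which ends the action potential. Inward rectifiers and tandem pore domain (K2P) channels hold the resting potential, and calcium-activated potassium channels open when cytosolic calcium rises. Sodium channel pores carry the fast upstroke of the action potential, and calcium channel pores carry the current that triggers contraction. Beta, alpha2delta and gamma subunits do not conduct; they set how many pores reach the membrane and how these open. In the heart the first calcium transients and beats have appeared by about the stage sampled here.

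The annotated upstream sequence of Kcnmb1 and Kcnj5 is shown first, because these were the channel genes that fell in the knockout at the genome-wide threshold. Both are the 250 bases before the RefSeq transcription start on GRCm38.p6, read 5′ to 3′ on the strand of the gene, with motif matches in capitals. The stretch of Kcnmb1 is chr11:33962763-33963012 on the plus strand, and that of Kcnj5 is chr9:32344345-32344594 on the minus strand.
Kcnmb1: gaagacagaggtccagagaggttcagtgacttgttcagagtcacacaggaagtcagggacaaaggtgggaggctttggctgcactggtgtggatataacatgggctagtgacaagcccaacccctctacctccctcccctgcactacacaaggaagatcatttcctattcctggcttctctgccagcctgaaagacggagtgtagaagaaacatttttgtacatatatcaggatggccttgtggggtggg
Kcnj5: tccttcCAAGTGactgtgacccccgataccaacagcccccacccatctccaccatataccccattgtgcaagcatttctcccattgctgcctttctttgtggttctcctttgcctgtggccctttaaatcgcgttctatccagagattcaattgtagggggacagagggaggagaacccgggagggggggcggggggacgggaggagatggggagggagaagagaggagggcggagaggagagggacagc
Both strands were searched for 4 short motifs bound by families of heart transcription factors. The homeodomain core TAATGG was found in 6.6% of all 32851 promoter entries of the same length, and in 3.1% of the 128 entries that 95 of the channel genes had. The NK2-type motif CAAGTG occurred in 11.6% of all entries and in 14.1% of those of channel genes. For the zinc-finger motif AGATAA the shares were 10% and 3.1%, and for the T-box motif AGGTGT they were 11.8% and 12.5%. Kcnj5 held 1 match, the NK2-type motif 244 bases before the start, and Kcnmb1 held 0. These letters describe the windows and identify no binding site.

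The channel genes were low in this tissue, and their highest members were auxiliary subunits and background potassium channels. Levels between genes were compared as RPKM, the deposited reads per kilobase of transcript scaled to library size, averaged over the 8 embryos. Over the 128 genes the median was 0.18 RPKM, 17 genes reached 1 RPKM and 49 lay under 0.1 RPKM. Cacng7, a gamma subunit, had the highest mean at 8.82 RPKM on a deposited transcript of 822 bases. Cacnb3, a beta subunit, followed at 5.93 RPKM, and Kcnk1, a K2P channel, at 5.50 RPKM. Cacna2d2, an alpha2delta subunit of calcium channels, stood at 4.98 RPKM, and Kcnh2, the ERG pore of the rapid delayed rectifier current, at 4.52 RPKM. The remaining genes at or above 1 RPKM included Kcnk5, Kcne3, Cacnb2, Kcnmb4, Kcnj5, Kcng1, Cacng4, Kcna5, Kcnab1, Kcnk6 and Kcnip3, at 3.42 to 1.08 RPKM. No sodium channel gene was among them: Scn8a was the highest of that class at 0.85 RPKM.

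**Figure D1:**
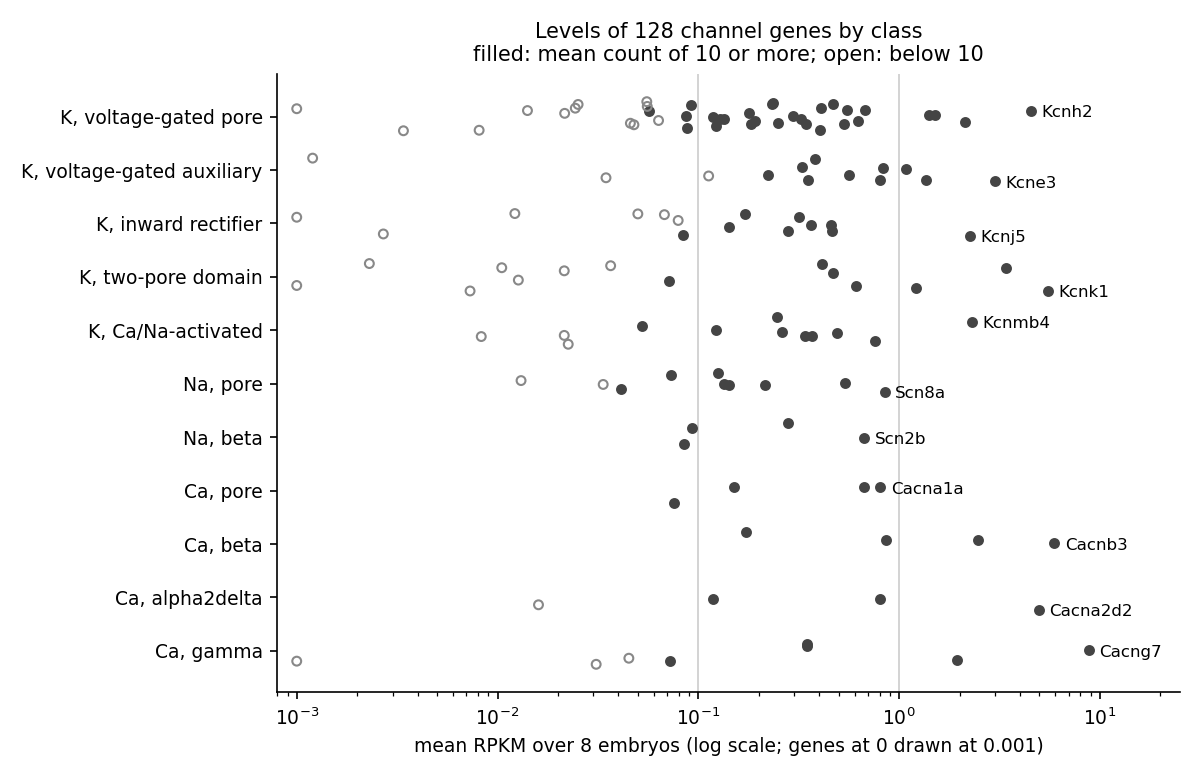
Mean RPKM over the 8 embryos (horizontal, log scale) of the 128 channel genes by class, with the highest gene of each class named; filled points have a mean count of 10 or more and open points less, and the 4 genes with no read are drawn at 0.001. Cacng7 lies furthest to the right at 8.82 RPKM and 17 genes reach 1 RPKM, none of them a sodium channel gene.

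A mean count of 10 or more was found for 91 of the 128 genes, among them 63 potassium, 12 sodium and 16 calcium channel genes. After the filter on low counts 90 were tested, and 38 were not. The 4 genes without a read in any library were Kcna10, Kcnj1, Kcnk15 and Cacng2, and a count of 0 allows up to 3 reads in a library. Kcnj8, the pore of the vascular ATP-sensitive potassium channel, had 2 reads in all, and Kcnd2, a pore of the transient outward current, had 12. Scn10a had a mean of 10.6 reads but did not pass the filter.

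Summed RPKM over all channel genes overlapped between genotypes, at 76.9 to 83.6 in wild-type and 71.6 to 84.5 in knockout embryos. The make-up of that sum differed by class. The alpha2delta subunits summed to 5.94 to 8.01 RPKM in wild-type and 3.78 to 5.26 RPKM in knockout embryos, and the inward rectifiers to 5.06 to 5.83 and 3.44 to 4.43 RPKM, with no overlap in either class. Each of these sums was led by 1 gene. Without Kcnj5 the inward rectifiers overlapped, at 2.30 to 2.62 and 2.19 to 2.87 RPKM. Without Cacna2d2 the alpha2delta subunits gave 0.98 to 1.27 and 0.72 to 0.93 RPKM, still without overlap. The gamma subunits, by contrast, summed to 9.31 to 12.7 RPKM in wild-type and 11.9 to 14.1 RPKM in knockout embryos, where the ranges overlapped. Auxiliary subunits of voltage-gated potassium channels summed to 6.97 to 8.84 RPKM in wild-type and 8.63 to 11.57 RPKM in knockout embryos, also with overlap. Sodium channel pores gave 1.92 to 2.52 against 1.87 to 2.56 RPKM. These sums were not tested.

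Isl1 was examined as the check of the genotype. Its level was 9.72 to 26.9 CPM (reads of the gene relative to the TMM-scaled library size) in wild-type and 1.78 to 2.40 CPM in knockout embryos, a log2 fold change of -3.0 (SE 0.36, edgeR quasi-likelihood test, FDR 0.0041). All log2 fold changes here are knockout over wild type, and FDR is the p-value adjusted over the 14075 genes tested.

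Few channel genes passed the genome-wide threshold. Of the 90 tested, 2 fell at an FDR under 0.05 (Kcnmb1 and Kcnj5), where 0.867% of all genes fell, and 1 rose (Scn3a), where 0.107% of all genes rose. By the looser rule of the study (1.5-fold, unadjusted p under 0.05), 8 were lower against 2.26% of all genes, and 4 were higher against 1.67%. The 4 wild-type and 4 knockout values did not overlap for 10 genes lower in the knockout, where 6.33% of all genes behaved so, and for 5 higher, where 3.96% did. The shares among the 90 were 2.22% and 1.11% at the FDR threshold, 8.89% and 4.44% at the thresholds of the study, and 11.1% and 5.56% for groups without overlap. DESeq2 on the same counts called 6 lower, adding Cacna2d2, Cacnb2, Kcng2 and Kcnh2, and 2 higher, adding Kcne3 (adjusted p of DESeq2 0.000414, 0.0295, 0.00437, 0.00455 and 0.000638). Over all genes DESeq2 called 3.29% lower and 1.68% higher. The median log2 fold change over the 90 was 0.12, with 36 lower and 54 higher, against 0.01 over all genes tested. By class, the median was -0.54 for 3 alpha2delta subunits and -0.36 for 9 inward rectifiers, and it lay between -0.0039 and 0.41 for the other classes.

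**Figure D2:**
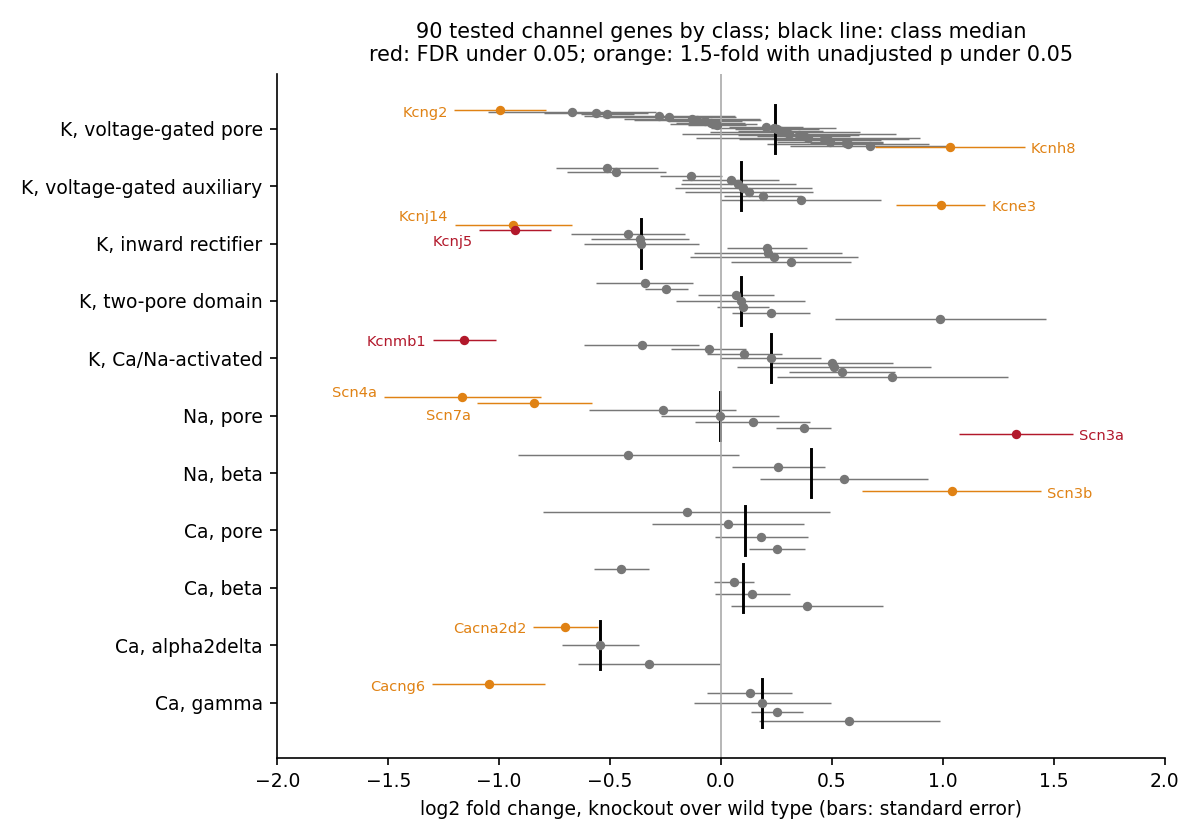
Log2 fold change, knockout over wild type (horizontal, bars are standard errors), of the 90 tested channel genes by class, with the class median as a black line. Genes past an FDR of 0.05 are red, those past 1.5-fold with an unadjusted p under 0.05 are orange, and all others are grey; the 3 red genes are Kcnmb1, Kcnj5 and Scn3a.

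Kcnmb1 had the lowest p of all channel genes. It encodes the beta1 subunit of the large-conductance calcium-activated potassium (BK) channel, best known in smooth muscle, where it raises the calcium sensitivity of the pore. The entry (NM_031169) lies at chromosome 11, 33863013 to 33873641, plus strand (mm9), inside the span of Kcnip1 on the opposite strand, with no exon shared. Wild-type embryos 1 to 4 held Kcnmb1 at 7.97, 7.67, 8.01 and 6.16 CPM, and knockout embryos 1 to 4 at 3.56, 3.27, 2.93 and 3.57 CPM. The groups were far apart, and the values within each were close. The mean (± SD, n = 4) fell from 7.45 ± 0.875 to 3.33 ± 0.303 CPM, with a log2 fold change of -1.16 (SE 0.14, edgeR FDR 0.00447). The call held in all 8 fits that left out 1 embryo, with FDRs of 0.00802 to 0.0253.

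The other tested subunits of the BK channel did not pass the test. Kcnma1, the pore itself, had 0.976 to 1.5 CPM in wild-type and 1.08 to 1.49 CPM in knockout embryos, and its log2 fold change was 0.22 (SE 0.23, FDR 0.649). Kcnmb4, the beta4 subunit known from neurons, gave 3.33 to 4.03 and 3.03 to 4.72 CPM (0.10, SE 0.17, FDR 0.79). Exons of Kcnmb4 overlap those of other annotated genes. Kcnmb2 had 7, 5, 4 and 2 reads in wild-type and 1, 0, 2 and 0 reads in knockout embryos, too few for the test. Kcnip1, whose span encloses Kcnmb1, had 0.927 to 3.42 and 2.74 to 4.48 CPM (0.36, SE 0.36, FDR 0.644). Among the small-conductance channels, Kcnn3 had 1.6 to 3.41 and 2.94 to 4.34 CPM (0.55, SE 0.24, FDR 0.276), and Kcnn2 and Kcnn1 gave log2 fold changes of -0.36 and 0.50 at FDRs of 0.507 and 0.383. Over the 9 tested calcium- and sodium-activated channel genes, 1 fell, 0 rose at the FDR threshold, and the median was 0.22.

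Markers of smooth muscle moved beside Kcnmb1. All 4 of the list (Acta2, Tagln, Myh11 and Cnn1) were lower, 2 of them past the FDR threshold (Acta2 -0.77, FDR 0.048; Cnn1 -1.12, FDR 0.00212), and none was at 0. Their summed level was 565.6 to 963.4 CPM in wild-type and 413.5 to 531.7 CPM in knockout embryos. Acta2, Tagln and Cnn1 are also expressed by early cardiomyocytes. Wild-type embryo 3 had the lowest smooth muscle sum of its group, and its Kcnmb1 value was 8.01 CPM, beside 7.97 and 7.67 CPM in wild-type embryos 1 and 2. Within the wild-type group Acta2, Tagln and Cnn1 were lowest in embryo 3. Myh11 was lowest in wild-type embryo 4 (2.85 CPM), where Kcnmb1 was also lowest (6.16 CPM). The part of these markers in the Kcnmb1 difference was not tested, and in bulk samples such as these fewer cells of a type and less RNA per cell cannot be told apart.

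Kcnj5 was the other gene that fell. It encodes GIRK4, which together with GIRK1 (Kcnj3) forms the acetylcholine-activated inward rectifier of atrial and pacemaker cells. The entry (NM_010605) lies at chromosome 9, 32122368 to 32151822, minus strand (mm9). Wild-type embryos 1 to 4 held it at 25.3, 21.3, 18.8 and 24.8 CPM, and knockout embryos 1 to 4 at 11.5, 8.62, 14.1 and 13.2 CPM. Every knockout value lay under every wild-type value, with wild-type embryo 3 and knockout embryo 2 the lowest of their groups. The mean (± SD, n = 4) fell from 22.5 ± 3.08 to 11.8 ± 2.41 CPM, with a log2 fold change of -0.93 (SE 0.16, edgeR FDR 0.0293). The size kept between -0.80 and -1.02 in the fits without 1 embryo, but the FDR rose to 0.119, 0.0792 and 0.0984 without wild-type embryos 1, 2 and 4, and to 0.103 and 0.0764 without knockout embryos 1 and 4. With the replicate number as a block it was 0.0611.

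Kcnj3, the partner of Kcnj5, had 4.63, 4.88, 6.19 and 2.97 CPM in wild-type and 4.45, 4.06, 2.82 and 2.55 CPM in knockout embryos. The groups overlapped, and the log2 fold change was -0.42 (SE 0.26, FDR 0.432); 1621 bases of its exons are shared with another annotated gene. Kcnj14, an inward rectifier known from motor neurons, had 0.665 to 1.0 CPM in wild-type and 0.343 to 0.497 CPM in knockout embryos without overlap, and did not pass the FDR threshold (-0.94, SE 0.26, FDR 0.126). Kcnj11, the pore of the cardiac ATP-sensitive channel, gave 1.67 to 2.28 against 1.22 to 1.97 CPM (-0.36, SE 0.22, FDR 0.428).
The classical inward rectifiers that hold the resting potential of mature ventricular muscle had higher means in the knockout without passing the test. Kcnj2 had 1.31 to 3.5 and 1.89 to 3.87 CPM (0.21, SE 0.33, FDR 0.786), and Kcnj12 had 2.57 to 3.71 and 3.11 to 4.48 CPM (0.21, SE 0.18, FDR 0.593). Of the 9 tested inward rectifiers, 5 were lower and 4 higher.

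Scn3a was the channel gene that rose. It encodes Nav1.3, a sodium channel pore of the embryonic nervous system. The entry (NM_018732) lies at chromosome 2, 65295175 to 65405684, minus strand (mm9). Its level was low: wild-type embryos 1 to 4 held 0.835, 1.33, 1.47 and 1.22 CPM, and knockout embryos 1 to 4 held 3.44, 2.53, 2.25 and 4.01 CPM. The groups did not overlap, and the knockout embryos spread more widely. The mean (± SD, n = 4) rose from 1.21 ± 0.274 to 3.06 ± 0.816 CPM, with a log2 fold change of 1.33 (SE 0.26, edgeR FDR 0.047). This call lay near the threshold: it held without wild-type embryo 3 (FDR 0.0323), and was lost without wild-type embryos 1, 2 and 4 (0.152, 0.111 and 0.113) and without knockout embryos 1 to 4 (0.134, 0.0566, 0.0518 and 0.15). In these fits the size kept between 1.18 and 1.45. The replicate block gave an FDR of 0.13.

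Scn3a lies in a cluster of sodium channel genes on chromosome 2, and its neighbours did not pass the test. Scn1a (66108838 to 66278897) gave 1.59 to 2.44 CPM in wild-type and 1.24 to 2.55 CPM in knockout embryos (0.14, SE 0.26, FDR 0.814). Scn9a (66318137 to 66473009) had 1 to 7 and 5 to 8 reads and was not tested. Scn7a (66511482 to 66622971), a sodium-sensing relative that is no voltage-gated pore, had 2.71, 3.59, 4.13 and 3.23 CPM in wild-type and 1.12, 2.61, 2.09 and 1.81 CPM in knockout embryos. Its groups did not overlap and its mean was 55.9% of the wild-type mean in the knockout, short of the FDR threshold (-0.84, SE 0.26, FDR 0.148). Scn2a had 0.835 to 1.46 and 0.784 to 1.31 CPM (FDR 0.994).

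Among the other sodium channel pores, Scn10a on chromosome 9 had 18, 18, 2 and 23 reads in wild-type and 7, 6, 5 and 6 reads in knockout embryos, with the lowest count in wild-type embryo 3. It was tested only where the filter was changed or 1 embryo was left out. In 6 of these fits its FDR was 0.303 to 0.468. In the fit without wild-type embryo 3 it entered through the higher wild-type counts that were left, so its call there carries no support. Scn4a, the skeletal muscle pore, had 2.0, 0.976, 3.29 and 1.52 CPM against 1.01, 0.871, 0.837 and 0.734 CPM (-1.17, SE 0.35, FDR 0.145). Scn8a, a pore known mainly from neurons and the most abundant of the class, had 12.6 to 16.4 and 15.9 to 20.9 CPM (0.37, SE 0.13, FDR 0.179).

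Sodium channel beta subunits, which anchor and modulate the pores, were mostly under 1 CPM. Scn3b had 0.169 to 0.722 CPM in wild-type and 0.657 to 1.05 CPM in knockout embryos (1.04, SE 0.40, FDR 0.228). The log2 fold change of Scn2b was 0.26 (SE 0.21, FDR 0.562). Scn4b gave -0.42 (SE 0.50, FDR 0.706), a direction set by wild-type embryo 4, since without it the value was 0.18 (FDR 0.883). Over the 11 tested sodium channel genes 5 were lower and 6 higher, with 1 rise past the FDR threshold.

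Neural markers are given beside Scn3a, since it is best known from neurons. Of 12 neural tube and neuron markers, 3 were lower and 9 higher, 0 passed the FDR threshold in edgeR, DESeq2 or limma (1 was lower at an unadjusted p under 0.05) and none was at 0. Their sum was 303.2 to 347.8 CPM in wild-type and 299.9 to 407.3 CPM in knockout embryos. In knockout embryos 1 to 4 the neural sums were 407.3, 301.9, 311.9 and 299.9 CPM, where Scn3a was 3.44, 2.53, 2.25 and 4.01 CPM. All 6 neural crest markers were higher, 0 past the FDR threshold. Their sums were 197.5 to 235.7 CPM in wild-type, and 235.0, 269.5, 178.8 and 326.1 CPM in knockout embryos 1 to 4. The crest sum and Scn3a were both highest in knockout embryo 4 and lowest in knockout embryo 3 within that group. The wild-type group did not follow this order. Its largest crest sum (235.7 CPM) belonged to embryo 1, which had its lowest Scn3a value (0.835 CPM). Embryo 3 of that group, with nearly the same crest sum (235.6 CPM), had its highest Scn3a value (1.47 CPM). Knockout embryo 3 had a crest sum under every wild-type sum, yet more Scn3a (2.25 CPM) than any wild-type embryo. The part of neural tissue or neural crest in the Scn3a difference was not tested further.

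**Figure D3:**
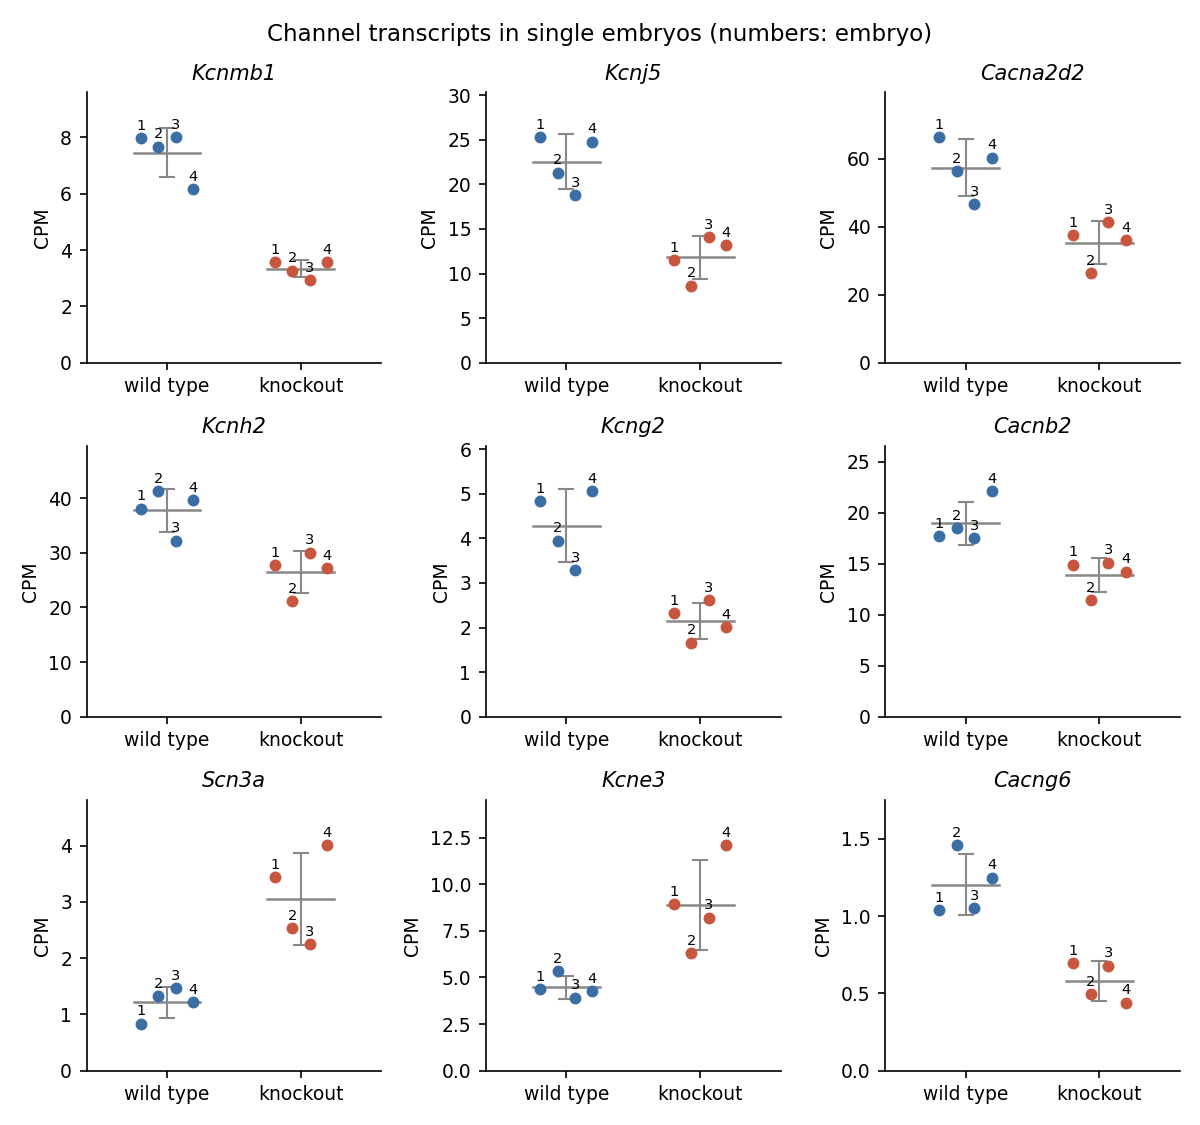
CPM (reads relative to the TMM-scaled library size) of 9 channel genes in each wild-type (blue) and knockout (red) embryo, numbered 1 to 4, with the group mean and SD in grey; each vertical axis starts at 0. Kcnmb1 and Kcnj5 are the genes that fell and Scn3a the one that rose at an FDR under 0.05, and in all 9 panels the groups do not overlap.

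Voltage-gated potassium pores, the largest class, gave no gene past the FDR threshold of edgeR among 28 tested. At an unadjusted p under 0.05, 3 were lower (Kcng2, Kcnh2 and Kcnf1) and 2 higher (Kcnh8 among them), where 10.1% of all genes were lower and 7.37% higher, and the class median was 0.25. For Kcnh2, the most abundant, wild-type embryos 1 to 4 held 38.1, 41.3, 32.2 and 39.6 CPM, and knockout embryos 1 to 4 held 27.8, 21.1, 30 and 27.2 CPM. Its groups did not overlap, and the knockout mean was 70.1% of the wild-type mean, with a log2 fold change of -0.51 (SE 0.12, FDR 0.0849). Wild-type embryo 3 and knockout embryo 2 were the lowest of their groups, as for Kcnj5. Of the 8 fits that left out 1 embryo, 1 passed the FDR threshold, at 0.0352 without wild-type embryo 3. In the other such fits the FDR of Kcnh2 reached 0.233.

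Kcng2 encodes Kv6.2, a silent subunit that modifies the pores it joins. It had 4.84, 3.95, 3.29 and 5.06 CPM in wild-type and 2.32, 1.66, 2.61 and 2.01 CPM in knockout embryos. The groups did not overlap and the knockout mean was 50.2% of the wild-type mean (log2 fold change -1.0, SE 0.21, FDR 0.0585). Of the 8 fits that left out 1 embryo, 1 passed the FDR threshold, at 0.0246 without wild-type embryo 3, which had the lowest wild-type value. In the other such fits the FDR reached 0.185. Kcng1, another silent subunit of the same family, did not pass the test, with 7.39 to 9.01 and 6.27 to 10.3 CPM (-0.05, SE 0.16, FDR 0.901). Kcnf1, a silent subunit of another type, had 4.30 to 8.98 and 3.52 to 4.44 CPM (-0.56, SE 0.24, FDR 0.255).

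Kcnh8, a pore of the ELK family, had 0.399 to 0.874 CPM in wild-type and 0.746 to 1.67 CPM in knockout embryos (1.03, SE 0.34, FDR 0.171). Kcnd3, the Kv4.3 pore of the transient outward current, had means of 5.55 ± 1.66 and 7.76 ± 1.45 CPM (SD, n = 4; log2 fold change 0.48, SE 0.24, FDR 0.331). Kcna5, the Kv1.5 pore of the atrial ultrarapid current, had 5.90 to 8.17 and 5.93 to 8.74 CPM (-0.07, SE 0.17, FDR 0.853). The groups overlapped for all 3 of these genes. In Kcna2 a single library stood out, wild-type embryo 3 with 5.10 CPM against 0.931 to 1.17 CPM in the other wild-type and 2.35 to 3.09 CPM in the knockout embryos. The log2 fold change of Kcna2 was 0.39 (FDR 0.729) with all 8 embryos and 1.35 (FDR 0.0128) without that library.

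The auxiliary subunits of voltage-gated potassium channels were led by Kcne3. This small membrane protein changes the gating of KCNQ1 and other pores. Wild-type embryos 1 to 4 held it at 4.38, 5.32, 3.92 and 4.26 CPM, and knockout embryos 1 to 4 at 8.93, 6.3, 8.21 and 12.1 CPM. All knockout values lay above all wild-type values, and the knockout mean was 198.7% of the wild-type mean. The log2 fold change was 0.99 (SE 0.20) at an FDR of 0.0549, and 1.13 at 0.0273 without knockout embryo 2, which had the lowest knockout value. That was 1 of 8 fits that left out 1 embryo, and in the others the FDR reached 0.173.
Kcnq1, the pore of the slow delayed rectifier, had 0.548 to 0.960 CPM in wild-type and 1.01 to 1.17 CPM in knockout embryos, without overlap (0.49, SE 0.24, FDR 0.326). Kcne1, its usual partner in the heart, had 1.59 to 2.66 and 1.42 to 1.97 CPM (-0.47, SE 0.22, FDR 0.316). Kcne1l gave -0.51 (SE 0.23, FDR 0.291). The KCNE genes thus lay on both sides of 0, and no difference between them was tested. Kcnip2, the calcium-binding partner of the Kv4 pores, had 0.836 to 1.73 and 1.05 to 1.52 CPM (0.08, SE 0.26, FDR 0.902), with the sign turned to -0.09 (FDR 0.898) without wild-type embryo 4.

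The K2P channels, which carry background potassium current, gave no call among 7 tested, with edgeR or DESeq2, and 1 gene was lower at an unadjusted p under 0.05. That gene was Kcnk1, the most abundant. It had 21.1, 27.0, 21.4 and 23.3 CPM in wild-type and 19.2, 19.0, 19.4 and 20.6 CPM in knockout embryos. The groups were apart by a narrow margin, with a log2 fold change of -0.25 (SE 0.10, FDR 0.238). Kcnk5 had 16.2 to 20.2 and 17.5 to 23.7 CPM (0.10, SE 0.12, FDR 0.697). Kcnk3, the TASK-1 channel of atrial muscle, had 2.28 to 3.84 and 1.78 to 2.82 CPM (-0.34, SE 0.22, FDR 0.449). Kcnk16 had the widest difference of the class, with 0.211 to 1.24 CPM in wild-type and 0.746 to 1.62 CPM in knockout embryos (0.99, SE 0.48, FDR 0.323), and the groups overlapped.

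Among the calcium channel subunits the 3 tested alpha2delta genes had lower means in the knockout, and none passed the FDR threshold of edgeR, while DESeq2 called Cacna2d2 (adjusted p of DESeq2 0.000414). These proteins sit on the outer face of the membrane and bring calcium channel pores to it. Wild-type embryos 1 to 4 held Cacna2d2 at 66.4, 56.4, 46.6 and 60.3 CPM, and knockout embryos 1 to 4 at 37.5, 26.4, 41.3 and 36.1 CPM. The groups did not overlap and the knockout mean was 61.5% of the wild-type mean (-0.70, SE 0.15, FDR 0.0614). It was past the threshold in 1 of the 8 fits that left out 1 embryo, without wild-type embryo 3 (0.0236), which had the lowest wild-type value. In the other such fits the FDR reached 0.195. Of the exons of Cacna2d2, 82 bases are shared with another annotated gene. Cacna2d1 had 11.6, 15, 10.3 and 10.6 CPM against 6.77, 10.5, 7.27 and 8.03 CPM, where wild-type embryo 3 and knockout embryo 2 overlapped (-0.54, SE 0.17, FDR 0.164). Cacna2d3 gave -0.32 (SE 0.32, FDR 0.643), and Cacna2d4 had too few reads to test.

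Of the beta subunits, which bind the pores inside the cell, Cacnb2 was lower. This main beta subunit of the heart had 17.7, 18.5, 17.5 and 22.1 CPM in wild-type and 14.9, 11.4, 15.1 and 14.2 CPM in knockout embryos. The groups did not overlap (-0.45, SE 0.12, FDR 0.114). Cacnb3, the most abundant beta subunit per length, was nearly level at 21.8 to 27.5 and 25.1 to 28.1 CPM (0.06, SE 0.09, FDR 0.779). Cacnb1 and Cacnb4 gave 0.14 (SE 0.17, FDR 0.707) and 0.39 (SE 0.34, FDR 0.602).

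The gamma subunit genes Cacng7, Cacng8 and Cacng6 lie side by side on chromosome 7 (3333055 to 3435658, plus strand, mm9) and lay on both sides of 0. Cacng6 had 1.04, 1.46, 1.05 and 1.25 CPM in wild-type and 0.696, 0.497, 0.680 and 0.441 CPM in knockout embryos. Its groups did not overlap, and the knockout mean was 48.0% of the wild-type mean (-1.05, SE 0.26, FDR 0.0866). Cacng7, which also trafficks glutamate receptors in neurons, had 9.84 to 13.4 and 12.5 to 14.2 CPM (0.25, SE 0.12, FDR 0.308). Cacng8 had 0.418 to 0.584 and 0.343 to 0.696 CPM (0.19, SE 0.31, FDR 0.796). The calcium channel pores of the set, which serve neurons and skeletal muscle, gave no call among 4 with edgeR or DESeq2 and 0 genes at an unadjusted p under 0.05. Cacna1a, the highest of them, had 9.35 to 10.1 CPM in wild-type and 10.3 to 14.2 CPM in knockout embryos, apart by a narrow margin (0.25, SE 0.13, FDR 0.336).

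Channel genes of the cardiac action potential were then taken as a list of 20 by their known currents. Of the 18 with enough reads 12 were lower and 6 higher, 1 (Kcnj5) passed the FDR threshold, and the median log2 fold change was -0.35, against 0.12 for all tested channel genes and 0.01 for all genes. At an unadjusted p under 0.05, 5 were lower (Kcnj5, Cacna2d2, Kcnh2, Cacnb2 and Cacna2d1) and 0 higher, beside 10.1% and 7.37% of all genes. DESeq2 called 4 of the list lower (Kcnj5, Cacna2d2, Kcnh2 and Cacnb2), and limma called 0. At an unadjusted p under 0.05 limma had 10 of all 90 channel genes lower and 11 higher, and the share of all genes there was not counted. Among the 6 higher were Kcnj2, Kcnj12, Kcnq1, Kcnd3 and Kcnip2. The summed level was 158.9 to 203.2 CPM in wild-type and 115.1 to 147.5 CPM in knockout embryos, with the lowest sums in wild-type embryo 3 and knockout embryo 2. This sum was led by the 5 genes named as lower, which had the highest wild-type means of the list. Among them were Cacna2d2 (mean 57.4 against 35.3 CPM) and Kcnh2 (37.8 against 26.5 CPM). The sum was not tested.
Pores that work with these subunits but fall outside the 128 genes were counted beside them. Of 10 such calcium and pacemaker pores 9 were tested, 5 were lower and 2 fell at the FDR threshold: Cacna1d, the Cav1.3 pore of pacemaker cells (-1.65, FDR 0.00186), and Hcn4, the pacemaker channel (-1.29, FDR 0.00186). Cacna1d had 18.2 to 22.9 CPM in wild-type and 5.35 to 7.93 CPM in knockout embryos. Of 27 proteins that bind or modify channels 20 were tested, 13 were lower and 0 passed the FDR threshold in edgeR (3 lower and 2 higher at an unadjusted p under 0.05), where DESeq2 called 3 lower.

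Cardiomyocyte markers moved in the same embryos. All 10 of the list were lower in the knockout, 7 past the FDR threshold, and none was at 0. Their sum was 2901.8 to 4376.3 CPM in wild-type and 1553.5 to 2369.1 CPM in knockout embryos, a wild-type mean of 3893.3 and a knockout mean of 1948.9 CPM. Wild-type embryo 3 had the lowest sum of its group and knockout embryo 2 the lowest of all, the same embryos that were lowest of their groups for Kcnj5, Cacna2d2, Kcnh2, Kcng2 and Cacnb2. Of the 10 channel genes lower without overlap these 5 followed that order, and Kcnmb1, Scn7a, Kcnj14, Cacng6 and Kcnk1 did not. How many of all genes followed it was not counted, and knockout embryo 2 is also the only library labelled total RNA. Kcnmb1 and Scn7a had their highest wild-type value in wild-type embryo 3, by a narrow margin for Kcnmb1 (8.01 against 7.97 CPM in wild-type embryo 1). The part of the cardiomyocyte share in the lower channel transcripts was not tested. Markers of neural crest, endothelium, primitive erythroid cells and endoderm gave 0 genes past the FDR threshold in edgeR, DESeq2 or limma, with 1 endothelial gene lower at an unadjusted p under 0.05.

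**Figure D4:**
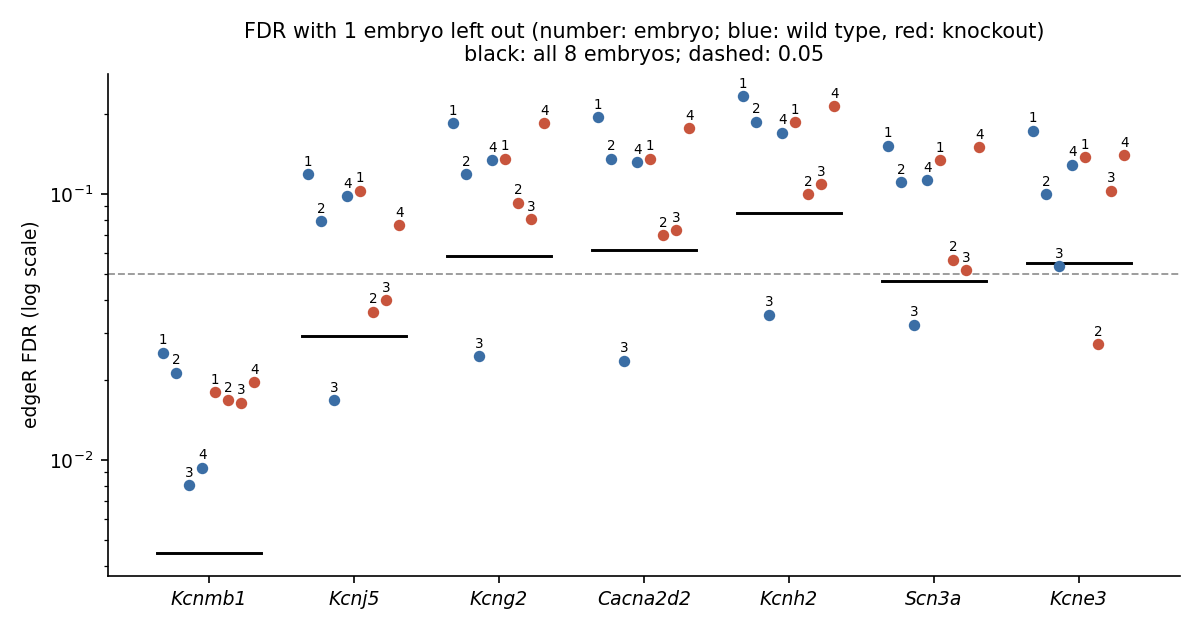
FDR of the edgeR test (vertical, log scale) for 7 channel genes in the 8 fits that each left out 1 wild-type (blue) or knockout (red) embryo, numbered by the embryo left out, with the FDR of all 8 embryos as a black line and 0.05 dashed. Only Kcnmb1 stays under 0.05 in all 8 fits; the 6 genes other than Kcne3 have their lowest such FDR without wild-type embryo 3.

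Single embryos weighed on these values. Wild-type embryo 3 was the farthest of its group from the other wild-type embryos for 38 of the 90 tested channel genes (42.2%, against 45.8% of all genes tested), and knockout embryo 2 of its group for 32 (35.6%, against 28.3%). Without wild-type embryo 3, 6 channel genes were lower at the FDR threshold (Kcnmb1, Kcnj5, Cacna2d2, Kcng2, Kcnh2 and Scn10a, the last of which was not among the 90 genes tested with all embryos) and 3 higher (Scn3a and Kcna2 among them), in a fit in which 2.71% of all genes fell and 0.748% rose. Without any other single embryo 1 or 2 were lower and 0 or 1 higher. Without knockout embryo 2, the library labelled total RNA, the FDRs of Kcnmb1 and Kcnj5 were 0.0167 and 0.0361. The log2 fold change of Kcnj5 was then -0.80, the smallest of the 8 fits that left out 1 embryo, against -0.93 with all embryos. The Scn3a call was lost without knockout embryo 2, at an FDR of 0.0566, while the log2 fold change was 1.42, against 1.33 with all embryos. The part of the RNA label in these values was not tested. Of the 8 fits that left out 1 embryo, only 1 kept the Scn3a call.

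The embryos also differed in Y-linked reads, and the labels give no sex. Wild-type embryo 4 and knockout embryos 1, 3 and 4 had 5285 to 7472 reads over 4 Y-linked genes, and the other 4 embryos 0 to 2. Among embryos with such reads, Kcnmb1 had 6.16 CPM in the wild-type embryo and 2.93 to 3.57 CPM in the knockouts, and among those without 7.67 to 8.01 CPM in the wild-type embryos and 3.27 CPM in the knockout. Kcnj5 had 24.8 against 11.5 to 14.1 CPM, and 18.8 to 25.3 against 8.62 CPM. Scn3a had 1.22 against 2.25 to 4.01 CPM, and 0.835 to 1.47 against 2.53 CPM. Each subset had 1 group of a single embryo, so these are values with no test. With Y-linked reads as a covariate, 5 channel genes were lower at the FDR threshold (Kcnmb1 0.0226, Kcnj5 0.0131, Cacnb2 0.025, Cacna2d2 0.0377 and Kcng2 0.0418) and 0 higher, with Scn3a at 0.174 and 3 higher at an unadjusted p under 0.05. At the FDR threshold 0.725% of all genes were lower in that fit and 0.0355% higher. The share of all genes at an unadjusted p under 0.05 was not counted there.

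The 37 channel genes with a mean count under 10 included 12 voltage-gated pores, 3 of their auxiliary subunits, 6 inward rectifiers, 7 K2P channels, 3 calcium- or sodium-activated channels, 2 sodium channel pores and 4 auxiliary calcium channel subunits. A few had enough reads to show a difference worth giving as counts. Kcnj13 had 17, 30, 5 and 7 reads in wild-type and 7, 7, 3 and 2 reads in knockout embryos. Kcns1, a silent subunit, had 10, 11, 14 and 7 against 4, 3, 3 and 3 reads, without overlap. Kcne2, a partner of KCNH2, had 0, 2, 0 and 1 against 8, 6, 0 and 2 reads. Kcnv2 and Kcng3 stood highest in wild-type embryo 3, at 18 and 22 reads. These members were chosen after their counts were seen and were left out of the filtered fit. In the fit with no filter on low counts their edgeR FDRs were 0.126 (Kcns1) to 0.691 (Kcng3), and exons of Kcnj13 overlap another annotated gene.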

How the data were processed

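RNA of 8 single embryos (4 Isl1 knockout, 4 wild type, grouped by sample title) was sequenced by the authors, who mapped reads to mm9 with STAR and counted them over RefSeq exons with HOMER on both strands, so antisense overlaps cannot be told apart. The deposited counts were raw reads per transcript (31507 entries). RPKM values had been computed and deposited with edgeR by the authors, and recomputing them differed by at most 0.000492. The deposited length column held transcript length in bases. The deposited table also held the authors' DESeq2 comparison (mean level, fold changes, errors, statistics and p-values), which was not used. Upstream tool versions are not given in the sources used here.

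For each symbol the transcript with the highest summed count was kept, giving 18916449 to 26153048 counts per library. Reads carried no molecular identifiers, so depth covers counting error only. Counts were filtered (filterByExpr), scaled by TMM and fitted by genotype with the two-sided quasi-likelihood test of edgeR 4.0.16 in R 4.3.3, with Benjamini-Hochberg adjustment over 14075 genes. The study used DESeq2, kept here as an alternative (1.42.0), beside limma 3.58.1 on log2(RPKM + 1). SE is the size of the log2 fold change over the root of F. On simulated counts with 200 of 13987 genes changed, 177 were called, 172 of them truly changed. With no gene changed, 0 of 13993 were called. At a log2 change of 1, 76.5% were recovered. The changed genes were drawn only from those above a minimum mean count, and no outlying embryo was simulated. The rate therefore does not cover genes with low counts or the spread of these embryos. Nothing states that embryos came from separate litters. Positions came from GENCODE vM1 on NCBIM37 (mm9), which held 127 of the 128 symbols. Exons of 17 overlapped those of another gene, among them Kcnmb4, Cacnb1, Cacnb2, Cacnb4, Cacna1a, Kcnd3 and Scn9a. Promoters came from RefSeq GRCm38.p6. Tables and plots used Python 3.11.15, pandas 2.3.3, numpy 2.4.6 and matplotlib 3.10.9.

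Genes named were Isl1, channel genes past FDR 0.05, up to 12 per direction past the study's thresholds, the cardiac current list and the highest gene by RPKM of each class. Genes outside the set were named only past FDR 0.05, or as cell type markers. Further channel genes, named as partners, neighbours or examples of a class, were chosen after their values were seen. The members and lists were chosen with earlier results of these data known. A few members of the set are counted but not reported here by name. Alternatives covered scaling, filters, test, transcript choice, replicate block, Y-linked reads and each embryo left out.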

Additional observations from a re-analysis of the deposited data

Results flagged for a closer look

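In 70 groups of 4 embryos (35 named channel genes by genotype) the farthest value was set against the spread of the other 3, and 2 groups stood out, both through knockout embryo 1. Kcnj11 had 1.97 CPM in that embryo against 1.22 to 1.33 CPM in the other knockout embryos. Kcne1 had 1.97 CPM in that embryo against 1.42 to 1.46 CPM in the others. Chance alone flags about 1 in 20 such groups, so 2 of 70 is no more than chance gives.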

How the results depend on the processing

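At the FDR threshold 2 channel genes were lower and 1 higher. These counts were 6 and 2 with DESeq2, 5 and 0 with Y-linked reads as a covariate, 1 and 0 with the replicate block (Kcnmb1 at an FDR of 0.0389) and 1 and 0 with limma on log2(RPKM + 1), and 2 were higher with no filter on low counts. Lower and higher together, 0.973% of all genes passed the FDR threshold in the main fit. This share was 4.97% with DESeq2, 0.76% with Y-linked reads, 0.54% with the replicate block, 0.845% with limma and 0.763% with no filter. At the thresholds of the study 8 were lower and 4 higher. These counts were 13 and 2 with Y-linked reads as a covariate and 1 and 1 with limma, whose log2 scale shrinks low genes, and 7 were higher with no filter. The share of all genes past the study's thresholds was not counted in the alternative fits. Leaving out 1 embryo gave 1 to 6 lower and 0 to 3 higher at the FDR threshold, and 8 to 12 lower and 4 to 7 higher at the thresholds of the study. The count of lower genes at the FDR threshold was 6 without wild-type embryo 3 and 1 without wild-type embryos 1, 2 or 4 or knockout embryos 1 or 4. The count of higher genes was 3 without wild-type embryo 3 and 0 without wild-type embryos 1, 2 or 4 or knockout embryos 1, 3 or 4. At the thresholds of the study 7 were higher without wild-type embryos 1 or 3 or knockout embryo 2. The cause of these shifts was not tested.

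Over 35 named channel genes and 16 alternatives, 526 of 560 log2 fold changes kept their direction and side of the FDR threshold, 17 lost a call, 13 gained one and 4 changed sign. Only Kcnmb1, Kcnj5 and Scn3a had a call to lose, so the 526 are mostly genes that stayed without a call. All 17 losses fell on Kcnj5 and Scn3a. Of those 4, Kcnip2, Kcna5 and Cacnb3 lay near 0 with all embryos (0.08, -0.07 and 0.06), and Scn4b was -0.42 (SE 0.50). With 1 embryo left out, Scn4b ranged from -0.72 to 0.18 (the sign turned without wild-type embryo 4). In the same fits Kcnip2 ranged from -0.087 to 0.25 (turned without wild-type embryo 4) and Kcna5 from -0.21 to 0.0022 (turned without knockout embryo 2). Cacnb3 was -0.0043 with Y-linked reads as a covariate. Samples with the same replicate number correlated at 0.109, 0.212, 0.086 and 0.507 in their deviations from the group means, and 2 of 8 embryos were closest to their own number, so the numbers were not taken to pair the embryos. Depth limits the 38 channel genes not tested.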
